A study of Arabidopsis thaliana with 2 samples.

Results

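The genes described here encode the main hydrogen peroxide-removing enzymes of *Arabidopsis* and the enzymes that make and recycle the antioxidants ascorbate and glutathione. They are 39 loci, picked by locus name for their enzyme family from the 33602 genes of the table. They comprise 8 ascorbate peroxidase (APX) genes, 5 monodehydroascorbate reductase (MDHAR) genes, 3 dehydroascorbate reductase (DHAR) genes, 2 glutathione reductase (GR) genes, 3 catalase (CAT) genes and 8 GPX-type peroxidase genes. The other members are 5 genes of ascorbate synthesis, 2 genes of glutathione synthesis and 3 peroxiredoxin genes. The transgenic library came from *35S:SsCBF1-11*, 1 line of *Arabidopsis* in the Col-0 background that carries *SsCBF1*, a CBF gene of the cold-hardy wild tomato relative *Solanum lycopersicoides*, under the CaMV 35S promoter, which is active in most plant tissues. The other library came from Col-0, the wild type. Plants of both genotypes were 4 weeks old and unstressed, kept at 22°C under a day of 16 h and a night of 8 h, and RNA from the aerial parts of 20 plants was pooled for each. There was 1 library per genotype and therefore no replicate check of any difference below, and every test compares 2 libraries rather than 2 genotypes.

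Plant cells make hydrogen peroxide in photosynthesis, photorespiration and respiration, and its amount rises under cold and other stresses. In the ascorbate-glutathione cycle, APX reduces hydrogen peroxide with ascorbate, MDHAR and DHAR turn the oxidized forms back into ascorbate, and GR renews the glutathione that DHAR uses. Catalases break down hydrogen peroxide in peroxisomes without a reductant, while peroxiredoxins and the GPX-type enzymes of plants take their electrons mainly from thioredoxins. CBF proteins are transcription factors of the cold response that bind the CRT/DRE element, whose core is CCGAC.

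The *35S:SsCBF1-11* library held 6669454 reads assigned to genes and the Col-0 library 9120358. The transgene itself was not analysed here. Among genes known to mark organs, all 3 leaf genes (*RBCS1A*, *RCA* and *CAB1*) were abundant in both libraries, with 246556 reads in *35S:SsCBF1-11* and 271148 in Col-0, and each had a higher share in *35S:SsCBF1-11*, by 1.15-fold, 1.09-fold and 1.79-fold. The 4 flower genes (*AP3*, *PI*, *ATA27* and *GRP17*) summed to 6 reads in *35S:SsCBF1-11* and 280 in Col-0, with *ATA27* and *GRP17* at 0 in *35S:SsCBF1-11*, and 3 of the 4 were called lower. The 2 genes of thickened stem cell walls (*FLA11* and *IRX3*) had 59 reads in *35S:SsCBF1-11* and 193 in Col-0, and 1 of them was called lower. The 3 seed genes summed to 0 reads in *35S:SsCBF1-11* and 2 in Col-0. Of the 2 root genes, *COBL9* had 0 reads in *35S:SsCBF1-11* and 2 in Col-0, while *PYK10* had 513 in *35S:SsCBF1-11* and 515 in Col-0, a ratio per total of 1.36 (1.20 to 1.54) with an adjusted p of 2.17e-05 by the exact binomial test. The Col-0 library thus held reads of floral genes that the *35S:SsCBF1-11* library nearly lacked, and more reads of stem genes, and the part of this in the differences below was not tested. In RNA from whole aerial parts, fewer cells of a type and less RNA per cell cannot be told apart.

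Most of the 39 genes differed little between the libraries, and *MDAR3* was the exception. A gene was called when the two-sided exact binomial test of its reads against the libraries' totals gave a Benjamini-Hochberg adjusted p under 0.001 over the 22319 genes with reads and its fold was above 2. By this rule 1 member was called higher in *35S:SsCBF1-11*, the MDHAR gene *MDAR3*, where 0.533% of all tested genes were called higher. The count called lower was 0 members, against 0.838% of all tested genes, and 38 members were not called. At the adjusted p alone, whatever the fold, 8 members were higher (*MDAR3*, *DHAR1*, *SAPX*, *MDAR2*, *VTC1*, *GPX1*, *PRXQ* and *CAT3*), where 2.45% of all genes passed in that direction. At the same threshold 3 members were lower (*CAT2*, *MDAR4* and *VTC2*), where 3.21% of all genes passed. The 10 of these members other than *MDAR3* had ratios between 0.815 and 1.75, under the fold that a call required. None of these 10 passed when pools were taken to vary by a coefficient of 0.1 in edgeR's exact test. The 39 members had a median of 1746 reads in both libraries together, against 109 over the 22319 genes. The binomial test passes smaller folds as reads rise, so 2.45% and 3.21% are not like-for-like shares. A share among genes of similar reads was not computed.

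The 37 members with at least 10 reads in both libraries together had a median log2 ratio of 0.09 (*35S:SsCBF1-11* over Col-0), against -0.07 over the 18443 genes with as many reads. The ratio was above 1 for 23 of them and below 1 for 14, and under edgeR's TMM scaling above 1 for 29 and below 1 for 8. That scaling also moved the median over all genes, to -0.0053. The remaining members, *APX2* and *GPX4*, had 3 reads each in all, too few for a fold. Among the 22 members with at least 1000 reads the median absolute log2 ratio was 0.145, against 0.149 over the 2021 genes with as many reads, and 95.5% of these members and 95% of these genes lay within 1.5-fold. With a lower limit of 100 reads, the median absolute log2 ratio was 0.142 over 36 members and 0.192 over 11606 genes, 94.4% of the members and 90.6% of the genes lay within 1.5-fold, and 2.78% of the members (*MDAR3* alone) and 2.11% of the genes lay beyond 2-fold. These members had more reads than these genes, with medians of 1829 and 330 reads in both libraries together.

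**Figure D1:**
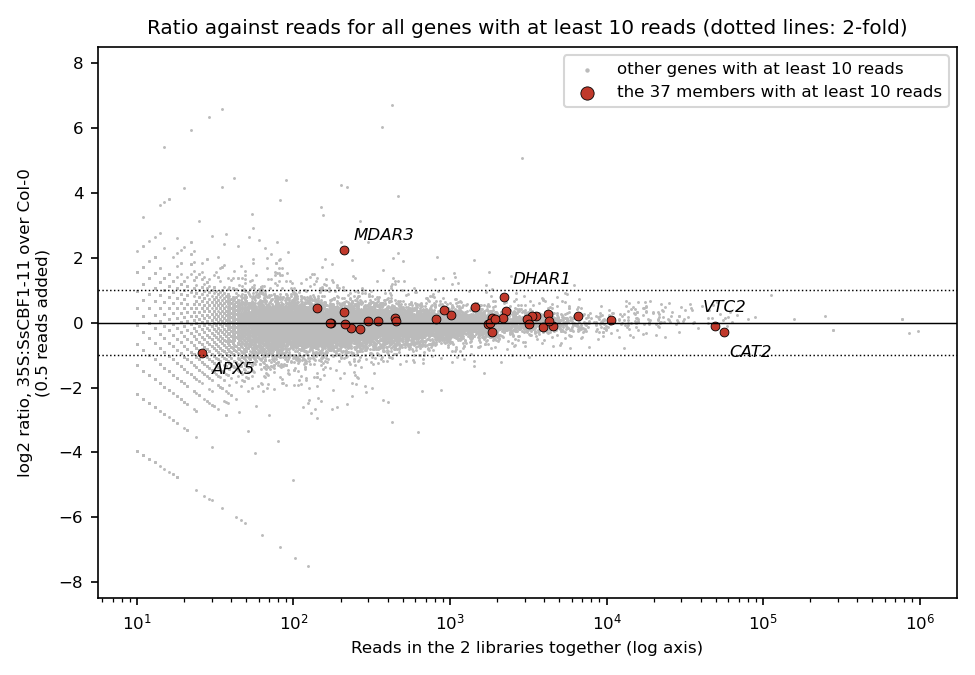
Each point is a gene with at least 10 reads, with the reads of both libraries together on the x axis (log scale) and the log2 ratio of *35S:SsCBF1-11* over Col-0 on the y axis, with 0.5 reads added to each count. Of the 37 members (red), *MDAR3* lies farthest from 0, at a log2 ratio of 2.23, and some of the other genes (grey) lie farther still. *DHAR1*, at 0.81 with 2209 reads, lies toward the upper edge of the other genes.

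In levels per length, the members ranged widely, and the most abundant were the same in both libraries. The highest were *CAT2*, at 1631 RPKM (reads per total, scaled to the length of the gene model) in *35S:SsCBF1-11* and 1983 RPKM in Col-0, and *VTC2*, at 1426 and 1544 RPKM. The third was the peroxiredoxin gene *2CPA*, at 697 RPKM in *35S:SsCBF1-11* and 653 RPKM in Col-0. At the other end, *APX5* was at 1.08 RPKM in *35S:SsCBF1-11* and 2.14 RPKM in Col-0, and *APX2* and *GPX4* were lower still. Together the members took 1.08% of the reads of *35S:SsCBF1-11* and 1.14% of those of Col-0, and *CAT2* and *VTC2* alone held most of these.

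**Figure D2:**
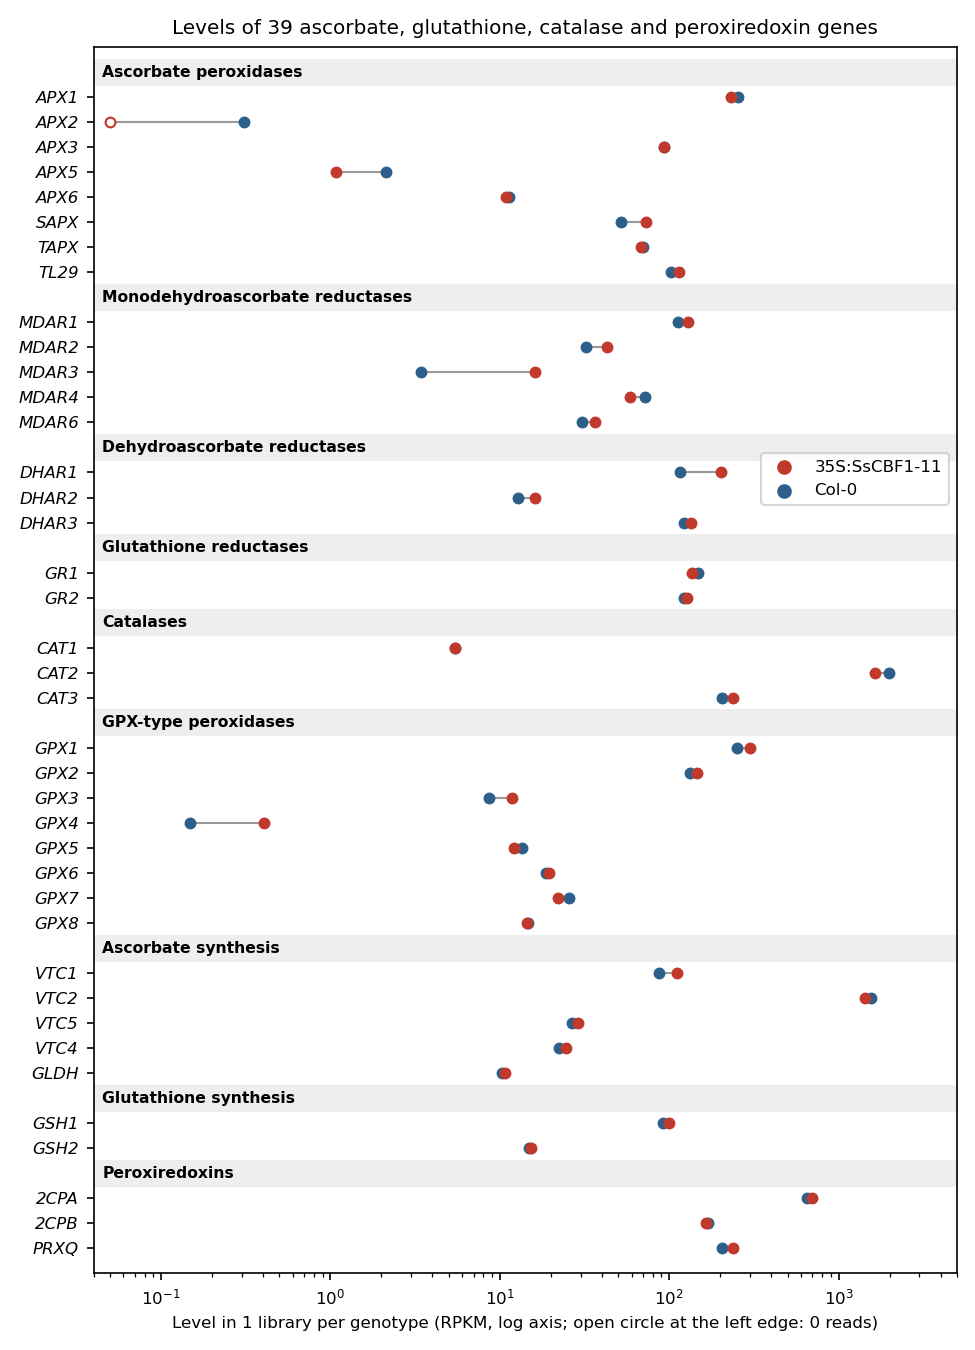
The level of each of the 39 genes is plotted in RPKM on a log axis, with 1 red point for the *35S:SsCBF1-11* library and 1 blue point for the Col-0 library, grouped by enzyme family. The points of a gene nearly coincide in most rows, *MDAR3* shows the widest gap of the genes with at least 100 reads (16.2 against 3.44 RPKM), and *APX2* with 0 reads in *35S:SsCBF1-11* is drawn as an open circle at the left edge.

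The MDHAR family, which reduces the monodehydroascorbate radical to ascorbate with NADH or NADPH, held the only called gene. The study lists this gene, AT3G09940, under both symbols, MDAR2 and MDAR3. Here *MDAR3* stands for AT3G09940 and *MDAR2* for AT5G03630. *MDAR3* (AT3G09940), a cytosolic form, had 162 reads (16.2 RPKM) in *35S:SsCBF1-11*, against 47 reads (3.44 RPKM) in Col-0. The ratio was 4.71 (exact 95% interval 3.39 to 6.67, counting error only), with an adjusted p of 5.26e-23 by the exact binomial test. This test takes no account of variation between plants, and when pools were taken to vary by a coefficient of 0.2 edgeR's exact test gave an adjusted p of 0.00191, which ends the call. *MDAR3* was the least abundant of the 5 MDHAR genes in both libraries. Its share of the family's reads was 4.91% (4.198 to 5.70) in *35S:SsCBF1-11* and 1.17% (0.858 to 1.55) in Col-0, so that even after the difference it supplied a small part of the MDHAR transcripts.

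*MDAR2* (AT5G03630), the other cytosolic form and the closest relative of *MDAR3* by coding sequence, with 78.7% identical bases, had 453 reads in *35S:SsCBF1-11* and 469 in Col-0. Its ratio was 1.32 (1.16 to 1.51), with an adjusted p of 0.000496. The peroxisomal form *MDAR4* (AT3G27820), which sits in the peroxisome membrane, went the other way, with 692 reads in *35S:SsCBF1-11* and 1161 in Col-0. Its ratio was 0.815 (0.741 to 0.896), with an adjusted p of 0.000367, which was 0.0122 under TMM scaling. Its share of the family's reads was 20.98% in *35S:SsCBF1-11* and 28.8% in Col-0. *MDAR1* (AT3G52880), a form of the peroxisome matrix and the most abundant MDHAR gene, had 1519 reads (129.9 RPKM) in *35S:SsCBF1-11* and 1808 (113.1 RPKM) in Col-0. With a ratio of 1.15 (1.07 to 1.23) and an adjusted p of 0.00125 it just missed the threshold. *MDAR6* (AT1G63940), the form of chloroplasts and mitochondria, had 473 and 545 reads, a ratio of 1.19 (1.05 to 1.34) and an adjusted p of 0.0573. Summed over the family, the ratio was 1.12 (1.07 to 1.17), far below that of *MDAR3*.

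In TAIR10.1, *MDAR3* occupies chr3:3056375-3059244 and has 9 exons, and *MDAR2* occupies chr5:922048-924728 and has 10 exons, both on the minus strand. No annotated gene overlaps either of them. The 250 bases upstream of each gene start are shown because *MDAR3* is the called gene and *MDAR2* its nearest relative. They are the windows chr3:3059245-3059494 and chr5:924729-924978 of TAIR10.1, read on the minus strand from 5′ to 3′ with gene starts from RefSeq, so that each ends at the base before the gene. Neither has the letters CCGAC on either strand, and therefore no capitals.
MDAR3: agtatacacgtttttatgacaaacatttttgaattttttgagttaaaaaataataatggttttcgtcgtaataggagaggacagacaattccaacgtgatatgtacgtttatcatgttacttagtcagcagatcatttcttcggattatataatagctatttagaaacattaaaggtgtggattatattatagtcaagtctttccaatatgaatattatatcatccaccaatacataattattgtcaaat
MDAR2: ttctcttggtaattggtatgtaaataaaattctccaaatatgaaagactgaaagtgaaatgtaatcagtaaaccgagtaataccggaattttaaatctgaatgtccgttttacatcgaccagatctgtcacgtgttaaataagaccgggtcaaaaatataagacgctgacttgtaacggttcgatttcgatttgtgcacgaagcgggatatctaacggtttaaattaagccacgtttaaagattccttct

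Of the 39 members, 4 (10.3%) had CCGAC, searched on both strands, in the 250 bases upstream of the gene start, against 12% of the 27443 protein-coding genes. These were *DHAR1*, *CAT3*, *GPX6* and *VTC4*. Within 1000 bases upstream the motif stood in 14 members (35.9%) and in 37.4% of protein-coding genes, and *MDAR3* and *MDAR2* had none in this window either. The motif was thus about as frequent upstream of the members as upstream of genes in general. The windows were not cut at neighbouring genes, so a match can lie within or beyond another gene. A match or its absence says nothing about binding.

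DHAR enzymes reduce dehydroascorbate to ascorbate at the expense of glutathione, and their genes as a family showed the highest summed ratio of the 9 groups. *DHAR1* (AT1G19570), a cytosolic form, had 1240 reads (203 RPKM) in *35S:SsCBF1-11* and 969 reads (116 RPKM) in Col-0. Its ratio was 1.75 (1.61 to 1.91), with an adjusted p of 4.94e-37, below the fold of 2 that a call required. *DHAR2* (AT1G75270), also cytosolic and 78.5% identical to *DHAR1* in coding sequence, had 100 and 109 reads, a ratio of 1.25 (0.947 to 1.66) and an adjusted p of 0.385. The chloroplast form *DHAR3* (AT5G16710) had 856 reads in *35S:SsCBF1-11* and 1072 in Col-0, a ratio of 1.09 (0.997 to 1.20) and an adjusted p of 0.253. All 3 ratios were thus above 1, but only that of *DHAR1* passed the test. In *35S:SsCBF1-11*, *DHAR1* supplied 56.5% of the family's reads (54.4 to 58.55) and *DHAR3* 38.98%, while in Col-0 *DHAR1* supplied 45.1% (42.95 to 47.2) and *DHAR3* 49.9%. The more abundant of these 2 genes was therefore a different one in each library. The summed ratio of the family was 1.40 (1.32 to 1.48).

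*DHAR1* occupies chr1:6773302-6774523 on the minus strand and has 3 exons and no overlapping gene. The stretch between it and the next gene, AT1G19580, is 159 bases long (chr1:6774524-6774682, TAIR10.1, minus strand from 5′ to 3′). It is shown because *DHAR1* had the next highest ratio after *MDAR3* and has a CCGAC core there, and it was chosen after the values were seen. The capitals mark the CCGAC core, which is preceded by G and whose nearest base lies 96 bases before the gene start. A further copy, preceded by A, lies 444 bases before it, beyond the stretch shown and past the near end of AT1G19580.
DHAR1: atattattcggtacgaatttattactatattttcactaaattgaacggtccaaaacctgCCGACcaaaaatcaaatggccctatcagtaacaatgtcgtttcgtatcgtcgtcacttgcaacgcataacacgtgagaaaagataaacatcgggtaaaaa

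**Figure D3:**
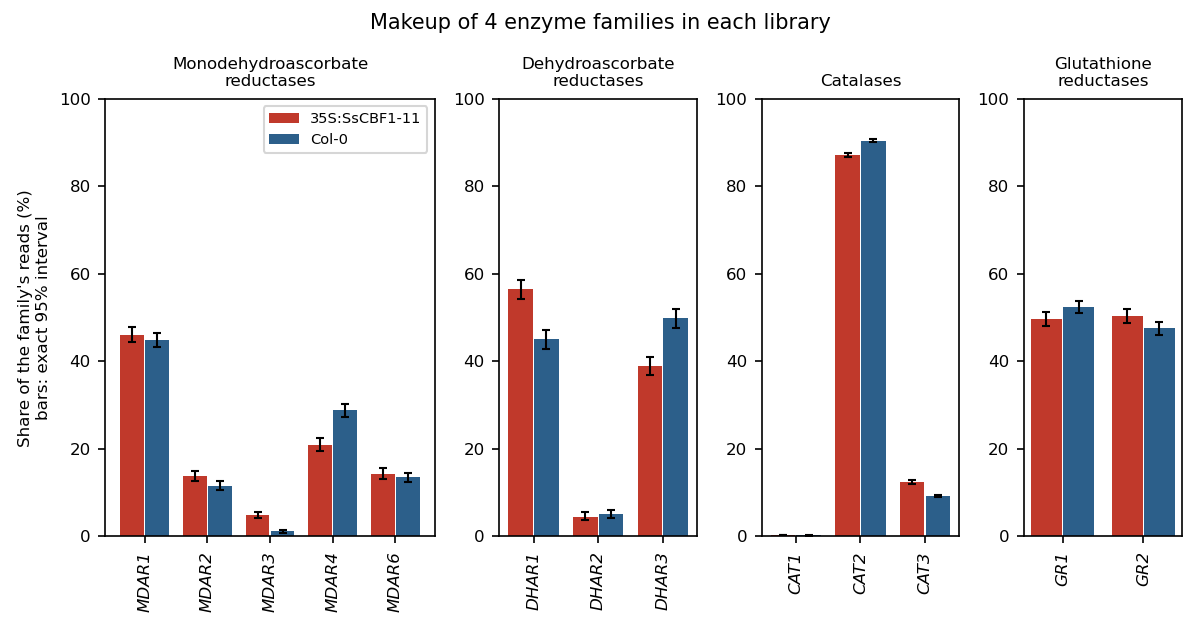
Bars give each gene's share of its family's reads in percent, with exact 95% intervals that cover counting error only, for *35S:SsCBF1-11* (red, left of each pair) and Col-0 (blue). *MDAR3* takes 4.91% against 1.17% of the MDHAR reads, *DHAR1* takes 56.5% against 45.1% of the DHAR reads, and *CAT2* takes 87.2% against 90.5% of the catalase reads.

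APX enzymes use ascorbate to reduce hydrogen peroxide in the cytosol, peroxisomes and chloroplasts, and 1 of their 8 genes passed the test. This was *SAPX* (AT4G08390), which encodes the stromal form of the chloroplast. It had 738 reads (73.0 RPKM) in *35S:SsCBF1-11* and 717 reads (51.9 RPKM) in Col-0, a ratio of 1.41 (1.27 to 1.56) with an adjusted p of 4.41e-09. *TAPX* (AT1G77490), which encodes the form bound to the thylakoid membrane and is 77.3% identical to *SAPX* in coding sequence, had 722 and 1024 reads, a ratio of 0.964 (0.875 to 1.06). The stromal form thus had fewer reads than the thylakoid form in Col-0 and slightly more in *35S:SsCBF1-11*. *APX1* (AT1G07890), the main cytosolic enzyme and the most abundant APX gene, had 1584 reads (232 RPKM) in *35S:SsCBF1-11* and 2361 reads (253 RPKM) in Col-0. Its ratio was 0.917 (0.860 to 0.978), with an adjusted p of 0.0649. *TL29* (AT4G09010), which encodes a thylakoid lumen relative of the APX enzymes, had 981 and 1202 reads and a ratio of 1.12 (1.02 to 1.22). The peroxisomal *APX3* (AT4G35000) had 760 and 1045 reads and a ratio of 0.995 (0.905 to 1.09), and *APX6* (AT4G32320) had 88 and 125 reads and a ratio of 0.963 (0.724 to 1.27).

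The remaining APX genes were near the detection limit. *APX2* (AT3G09640), a cytosolic form known for its induction by heat and strong light, had 0 reads in *35S:SsCBF1-11*, a count that allows up to 3 reads, and 3 reads in Col-0. For *APX5* (AT4G35970), a peroxisomal form, there were 7 and 19 reads and a ratio of 0.504 (0.179 to 1.25). The adjusted p were 0.631 for *APX2* and 0.492 for *APX5*, and no difference was detectable for these genes at this depth. Over all 8 genes the ratio of summed reads was 1.03 (0.990 to 1.07).

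GR, which reduces oxidized glutathione with NADPH, is encoded by 2 genes, and neither passed the test. *GR1* (AT3G24170), which encodes the cytosolic form, had 1833 reads (137 RPKM) in *35S:SsCBF1-11* and 2698 reads (147 RPKM) in Col-0, with a ratio of 0.929 (0.875 to 0.986). *GR2* (AT3G54660), whose product enters chloroplasts and mitochondria, had 1856 reads (127 RPKM) and 2444 reads (122 RPKM), with a ratio of 1.04 (0.977 to 1.10). The adjusted p were 0.104 for *GR1* and 0.578 for *GR2*.

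Catalase transcripts were dominated by *CAT2*, and the ratios of the 2 abundant catalase genes between these libraries lay on opposite sides of 1. *CAT2* (AT4G35090), the catalase of leaf peroxisomes that removes the hydrogen peroxide of photorespiration, had 21000 reads (1631 RPKM) in *35S:SsCBF1-11* and 34906 reads (1983 RPKM) in Col-0. The ratio was 0.823 (0.809 to 0.837), with an adjusted p of 1.78e-109. *CAT3* (AT1G20620) had 3012 reads (238 RPKM) in *35S:SsCBF1-11* and 3577 reads (206 RPKM) in Col-0, a ratio of 1.15 (1.10 to 1.21) with an adjusted p of 4.80e-07. These values of p cover counting error only. With a coefficient of variation of 0.1 assumed between pools, edgeR's exact test gave *CAT2* an adjusted p of 0.890, and *CAT3* did not pass either. *CAT1* (AT1G20630), which lies 95 bases from *CAT3* on chromosome 1, had 73 and 101 reads, a ratio of 0.988 (0.721 to 1.35) and an adjusted p of 1. In *35S:SsCBF1-11*, *CAT2* supplied 87.2% of the catalase reads (86.8 to 87.6) and *CAT3* 12.5%, while in Col-0 *CAT2* supplied 90.5% (90.2 to 90.8) and *CAT3* 9.27%. The ratio of summed catalase reads was 0.854 (0.840 to 0.867), the lowest of the 9 groups.

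Among the 8 GPX-type genes 2 were abundant and 6 rarer. *GPX1* (AT2G25080), which encodes a chloroplast form, had 1987 reads (302 RPKM) in *35S:SsCBF1-11* and 2259 reads (251 RPKM) in Col-0. Its ratio was 1.20 (1.13 to 1.28), with an adjusted p of 9.43e-08, and it was the one member of the family that passed the test. *GPX2* (AT2G31570) had 825 and 1030 reads, a ratio of 1.10 (0.998 to 1.20) and an adjusted p of 0.248. *GPX3* (AT2G43350) had 71 reads in each library, a ratio of 1.37 (0.970 to 1.93) and an adjusted p of 0.273. The other chloroplast form, *GPX7* (AT4G31870), had 104 reads in *35S:SsCBF1-11* and 163 in Col-0, a ratio of 0.873 (0.676 to 1.12). *GPX5* (AT3G63080) had 92 and 140 reads, *GPX6* (AT4G11600) 129 and 170, and *GPX8* (AT1G63460) 72 and 100, with ratios of 0.899, 1.04 and 0.985 that all had intervals including 1. *GPX4* (AT2G48150) had 2 reads in *35S:SsCBF1-11* and 1 in Col-0, too few for a fold, with an adjusted p of 0.865.

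Peroxiredoxins of the chloroplast were represented by the 2-Cys genes *2CPA* and *2CPB* and by *PRXQ*. *PRXQ* (AT3G26060) had 1625 reads (239 RPKM) in *35S:SsCBF1-11* and 1919 reads (206 RPKM) in Col-0, a ratio of 1.16 (1.08 to 1.24) with an adjusted p of 0.000291. *2CPA* (AT3G11630), the most abundant of the 3, had 4683 and 6005 reads, a ratio of 1.07 (1.03 to 1.11) and an adjusted p of 0.0117. *2CPB* (AT5G06290), with 83.5% identical bases to *2CPA* the most similar pair among all families, had 1325 and 1863 reads and a ratio of 0.973 (0.906 to 1.04). The share of *2CPA* in the reads of the 3 genes was 61.35% in *35S:SsCBF1-11* and 61.36% in Col-0. Over the 3 genes the summed ratio was 1.07 (1.03 to 1.10).

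Of the 5 genes of ascorbate synthesis, 1 passed the test in each direction. *VTC1* (AT2G39770), which encodes the enzyme that makes GDP-mannose, had 1099 reads (111 RPKM) in *35S:SsCBF1-11* and 1178 reads (86.6 RPKM) in Col-0, a ratio of 1.28 (1.17 to 1.39) with an adjusted p of 2.95e-07. *VTC2* (AT4G26850), which encodes GDP-L-galactose phosphorylase, the main control step of the pathway, had 19816 reads (1426 RPKM) and 29346 reads (1544 RPKM). Its ratio was 0.923 (0.907 to 0.940), with an adjusted p of 3.44e-16, which was 0.00442 under TMM scaling. *VTC2* supplied 91.6% of the reads of these 5 genes in *35S:SsCBF1-11* and 93.4% in Col-0. Its paralog *VTC5* (AT5G55120) had 361 and 458 reads and a ratio of 1.08 (0.936 to 1.24). *VTC4* (AT3G02870), which encodes a phosphatase that releases L-galactose, had 199 and 245 reads and a ratio of 1.11 (0.917 to 1.34). *GLDH* (AT3G47930), which encodes the mitochondrial enzyme of the last step, had 149 and 197 reads and a ratio of 1.03 (0.830 to 1.29).

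Neither gene of glutathione synthesis passed the test. *GSH1* (AT4G23100), which encodes the chloroplast enzyme of the first and controlling step, had 1371 reads (100.03 RPKM) in *35S:SsCBF1-11* and 1716 reads (91.6 RPKM) in Col-0, a ratio of 1.09 (1.02 to 1.17) and an adjusted p of 0.0995. *GSH2* (AT5G27380), which encodes glutathione synthetase, had 195 and 259 reads, a ratio of 1.03 (0.851 to 1.24) and an adjusted p of 0.985.

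**Figure D4:**
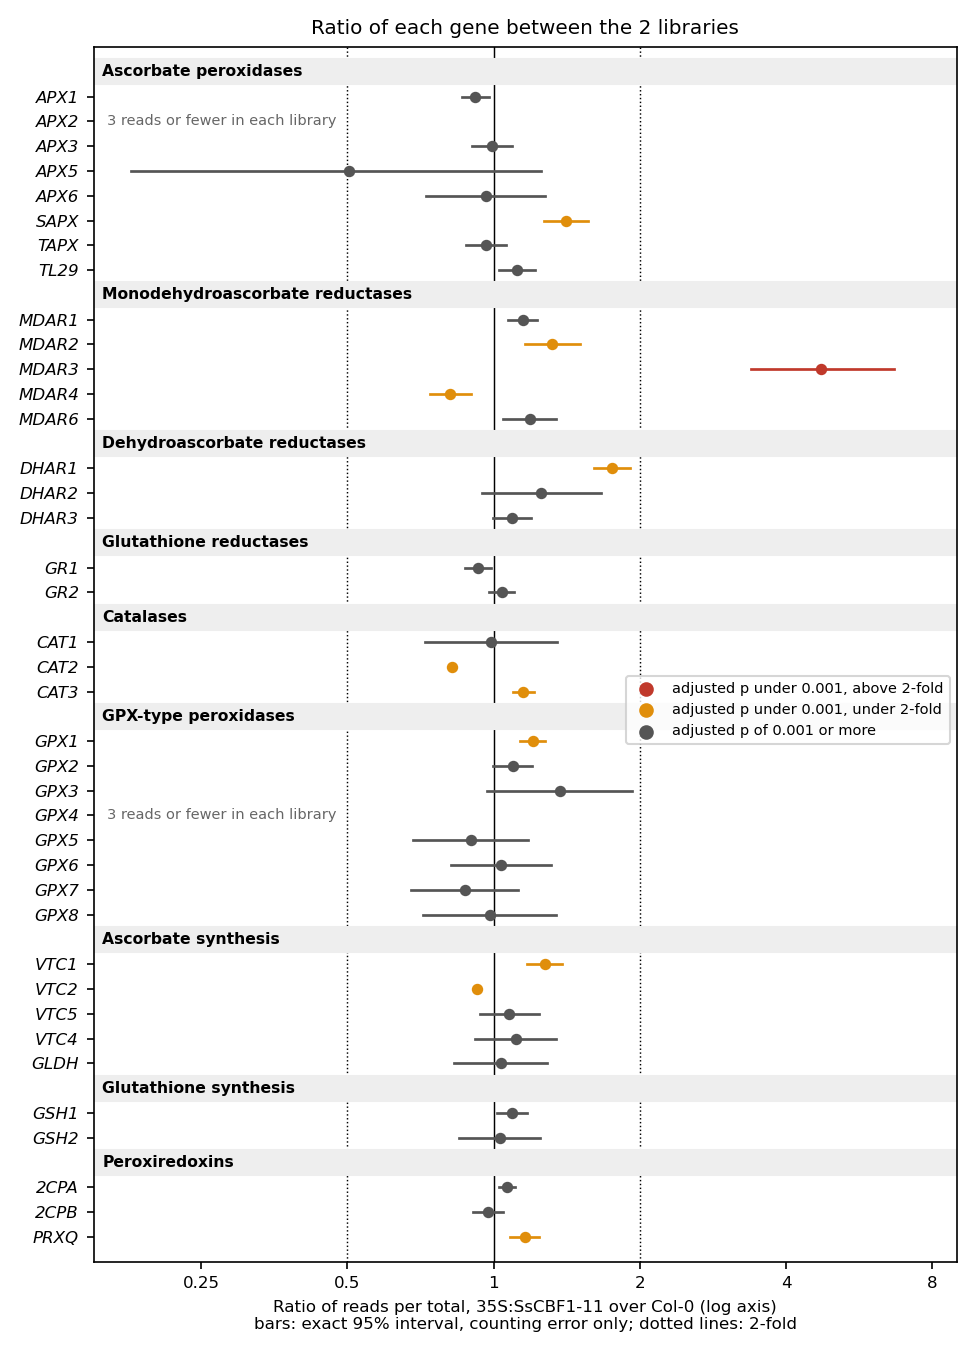
Points give the ratio of reads per total of *35S:SsCBF1-11* over Col-0 on a log axis, with exact 95% intervals that cover counting error only, for the 37 members with at least 10 reads. *MDAR3* at 4.71 is the only point beyond the 2-fold line with an adjusted p under 0.001 (red), 10 members passed that p at a smaller fold (orange), and the intervals of the rarer genes are wide.

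The members were also grouped by the compartment in which the enzymes mainly act. This grouping is a working assignment, since products such as those of *DHAR1*, *MDAR1*, *MDAR6*, *SAPX* and *GR2* are known in more than 1 place. The shares of all tested genes that passed an adjusted p under 0.001 were 2.45% higher and 3.21% lower. Those genes had a lower median of reads than the members, so these shares are not a like-for-like measure for the counts that follow. Among the 12 chloroplast genes, 9 ratios were above 1, 3 genes were higher at an adjusted p under 0.001 (*SAPX*, *GPX1* and *PRXQ*) and 0 were lower, and the ratio of summed reads was 1.09 (1.07 to 1.12). Among the 7 peroxisomal genes, 5 ratios were below 1, *CAT2* and *MDAR4* were lower and *CAT3* higher at that threshold, and the summed ratio was 0.868 (0.855 to 0.882), with most of the reads from *CAT2*. Of these 5 ratios, those of *APX3* (0.995), *CAT1* (0.988) and *APX5* (0.504) had intervals that included 1. Under TMM scaling *MDAR4* missed the threshold, with an adjusted p of 0.0122 by the exact binomial test. Among the 12 cytosolic genes, 7 of the 11 ratios were above 1, and 4 genes were higher (*MDAR3*, *DHAR1*, *MDAR2* and *VTC1*) and 1 was lower (*VTC2*). The summed ratio of the cytosolic genes was nevertheless below 1, at 0.969 (0.954 to 0.984), with most of the reads from *VTC2*. Under TMM scaling *VTC2* missed the threshold. The 7 genes placed elsewhere had a summed ratio of 1.07 (0.997 to 1.15), and the mitochondrial *GLDH* had 1.03 (0.830 to 1.29), with 0 genes past the threshold. The 3 leaf genes *RBCS1A*, *RCA* and *CAB1*, which act in chloroplasts, were also higher in *35S:SsCBF1-11*, by 1.09-fold to 1.79-fold, and their part in the chloroplast ratios was not tested. Whether the compartments differed from each other was not tested either.

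Of 29 further genes of the same pathways, 27 had reads, 0 were called in either direction, and at an adjusted p under 0.001 2 were lower and 0 higher, where 3.21% and 2.45% of all tested genes passed in these directions. The median log2 ratio over the 25 with at least 10 reads was -0.01. The lower ones were AT5G21105, annotated as an ascorbate oxidase, and *OXP1* (AT5G37830), which encodes the 5-oxoprolinase of glutathione breakdown. AT5G21105 had 225 reads (15.1 RPKM) in *35S:SsCBF1-11* and 491 (24.04 RPKM) in Col-0, a ratio of 0.627 (0.533 to 0.735) with an adjusted p of 1.31e-07. *OXP1* had 169 reads (5.82 RPKM) and 389 (9.80 RPKM), a ratio of 0.594 (0.493 to 0.713) with an adjusted p of 3.06e-07. In both groups, ascorbate oxidases and glutathione breakdown, all 3 genes with at least 10 reads had ratios below 1, and 1 of the 3 passed the test in each. The intervals of AT4G39830 (0.336 to 2.18), AT5G21100 (0.831 to 1.003) and *GGT1* (0.781 to 1.10) included 1. That of *GGT4* (AT4G29210) did not, at a ratio of 0.719 (0.560 to 0.918), with an adjusted p of 0.0559 by the exact binomial test. The median log2 ratio over all genes with at least 10 reads was itself below 0, at -0.07.

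The most abundant of the other pathway genes did not pass the test, apart from *OXP1*. Among thioredoxins and their partners *TRXF1* had 1477 reads in *35S:SsCBF1-11* and 1795 in Col-0, a ratio of 1.13 (1.05 to 1.21), and 0 of the 9 genes of that group passed the test. Among other peroxiredoxins *PRXIIE* had 912 and 1063 reads, a ratio of 1.17 (1.07 to 1.28), and it was the 1 gene of the 4 with at least 10 reads whose ratio was above 1. *PRXIIB*, named after its values were seen, had nearly as many reads, 769 and 1202, and a ratio of 0.875 (0.798 to 0.959), and *PRXIIF*, named likewise, had 336 and 564 reads and a ratio of 0.815 (0.710 to 0.934). None of these passed the adjusted p of 0.001. *GME*, which encodes the GDP-mannose epimerase of ascorbate synthesis, had 1930 and 2630 reads, a ratio of 1.004 (0.946 to 1.06). *NCA1*, whose product is needed for catalase activity, had 519 and 609 reads and a ratio of 1.17 (1.03 to 1.31). Of the ascorbate oxidase genes AT5G21100 had the most reads, 741 and 1110, and a ratio of 0.913 (0.831 to 1.003).

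Overlapping and similar genes limit some of these counts, since it is not given whether the counting used strand. An annotated gene overlaps 10 of the 39 members, among them *CAT2*, which shares 95 bases with AT4G35080 (146 reads in *35S:SsCBF1-11* and 192 in Col-0), and *GPX7*, which shares 751 bases with AT4G31875 (26 and 47 reads). *MDAR3*, *DHAR1*, *SAPX*, *MDAR2*, *MDAR4*, *CAT3*, *GPX1*, *VTC1*, *VTC2* and *PRXQ* overlap none. In the 86 pairs of coding sequences within families, the longest run of identical bases was 41, between *GPX1* and *GPX7*, and the run between *MDAR2* and *MDAR3* was 26, all shorter than the reads of the study.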

How the data were processed

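RNA from pooled aerial parts was sequenced on an Illumina HiSeq system, with 1 library each of *35S:SsCBF1-11* and Col-0. The authors deposited raw read counts per gene for 33602 genes. The submitters' notes name TAIR10 and CASAVA 1.7, while no aligner, counting rule or strand use is given in the sources used here. Deposited columns with 2 RPKM values per gene, and the authors' fold, log2 fold and Q-value, were not used, nor were their pathway lists. RPKM was computed here from the counts and the listed gene model lengths.

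The counts were tested as deposited by a two-sided exact binomial test per gene against the libraries' shares of all reads (42.2% for *35S:SsCBF1-11*), with Benjamini-Hochberg adjustment over the 22319 genes with at least 1 read. Models that estimate the spread between replicates could not be fitted. To be called, a gene needed an adjusted p under 0.001 and more than a 2-fold difference after adding 0.5 reads to each count. The 95% intervals of ratios are exact (Clopper-Pearson), and 0 reads allow up to 3. Intervals and limits cover counting error only. The procedure was tested on simulated counts that held counting error only. These had no variation between pools, so they cannot show how the calls hold under such variation. All 39 members matched the TAIR10.1 annotation of RefSeq, as did 32835 of the 33602 loci, and sequences and coordinates come from that assembly.

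The members and gene lists were chosen with earlier results of these data known. All members were named, with full values for those with an adjusted p under 0.001, the one with most reads per family and those with under 10 reads. Other pathway genes were named if they passed that p or had the most reads of their group. *PRXIIB*, *PRXIIF*, AT4G39830, *GGT1* and *GGT4* were named outside this rule. The alternatives were other scalings, read minimums, pseudocounts and thresholds, nuclear protein-coding genes only, and the exact test of edgeR at an assumed coefficient of variation. Versions were scipy 1.17.1, numpy 2.4.6, pandas 2.3.3, Biopython 1.88 and matplotlib 3.10.9 in Python 3.11.15, and DESeq2 1.42.0 and edgeR 4.0.16 in R 4.3.3.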

Additional observations from a re-analysis of the deposited data

How the results depend on the processing

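*MDAR3* was called higher under every scaling, read minimum and pseudocount tried. With a fold above 1.5 the members called higher were 2, *MDAR3* and *DHAR1*. At that fold 232 of all 22319 tested genes were called higher and 409 lower, against 119 and 187 at a fold above 2. With edgeR's exact test and a coefficient of variation of 0.1 assumed between pools, *MDAR3* was the only member at an adjusted p under 0.001, and with 0.2 or 0.4 the members called higher were 0, with adjusted p of 0.00191 and 1 for *MDAR3*. The count of members called lower was 0 under all of these settings, and the median log2 ratio of the members stayed between 0.06 and 0.17.

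The smaller differences depended on the scaling. With edgeR's TMM or DESeq2's size factors, which raise the median of all genes by 0.067 and 0.073 on the log2 scale, 10 members were higher and 1 lower at an adjusted p under 0.001. *MDAR4* and *VTC2* then missed the threshold, while *MDAR1* and *2CPA* passed it. The share of all genes past this p was not computed for these scalings. With a fold above 2 required as well, 134 of all 22319 genes were called higher and 144 lower under TMM. Under DESeq2's size factors these counts were 136 and 141, and under the main scaling 119 and 187. With totals that leave out the 10 most abundant genes, and also with nuclear protein-coding genes only, *MDAR2* and *PRXQ* missed the adjusted p of 0.001. Over all genes, higher calls were 38.9% of the calls, against 49.1% with DESeq2's size factors. No paired analysis was possible because each genotype had 1 library, and no library was left out for the same reason.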
